A study of Rattus norvegicus with 4 samples.

Results

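Chemokines are small secreted proteins that guide migrating cells, and chemokine receptors are the G protein-coupled receptors that read them. On a rat whole-genome array, 52 probes of 41012 carried the name of a chemokine or a chemokine receptor, and they stood for 46 genes of 35635 named ones. The members were chosen by gene name alone: Ccl, Cxcl, Cx3cl1, Ccr, Cxcr and Cx3cr1 names, with Pf4, Ppbp, Xcl1, Xcr1, Ccrl2 and Blr1. The 46 genes comprised 30 ligands and 16 receptors, and 6 of them had 2 probes. For 5 genes a current symbol replaced the array's name: Blr1 became Cxcr5, Cxcl7 Ppbp, Cxcl4 Pf4, Ccl21b Ccl21 and Cxcl5 Cxcl6.

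The study compared olfactory ensheathing cells that carried much or little of the neurotrophin receptor p75 (encoded by Ngfr). Olfactory ensheathing cells are glial cells that enclose olfactory axons. Cells cultured from male Fischer rats were sorted by flow cytometry into a p75High and a p75Low population, with a stated purity of 98%, and messenger RNA was amplified by a PCR-based method before labelling 250 ng of cDNA. Each of 4 arrays held a pair, p75High in Cy5 and p75Low in Cy3, so each array was 1 replicate and its log2 ratio of p75High over p75Low was the paired difference. No array had the dyes exchanged, so a dye effect on a gene and a difference between populations cannot be told apart. The animals' age, the part of the olfactory system taken and the number of animals or cultures behind each replicate are not given in the sources used here, so p-values describe only how these 4 pairs vary, which may be partly technical.

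Ligands with adjacent cysteines (Ccl) mostly attract monocytes, lymphocytes and dendritic cells, and those with a residue between the cysteines (Cxcl) include the neutrophil attractants and the interferon-induced T cell attractants. Some members are inflammatory and are made on activation, and others, such as Cxcl12, Ccl19 and Ccl21, are made steadily and place cells within tissues. In nervous tissue Cx3cr1 is the receptor of microglia and macrophages for the neuronal ligand fractalkine, Cx3cl1.

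The probes behind the members with the clearest patterns are shown because each value below is the signal of a single 60-base sequence. Positions are those of the rn4 build in the array files, and the exon in which each probe lies was not looked up. The Cx3cr1 probe lay at chr8:125034092-125034151 on the minus strand, that of Ccr2 at chr8:128893805-128893864 on the plus strand and that of Ccr1l1 at chr8:128728696-128728755 on the minus strand. The probes of Ccl4 and Ccl7 lay on the plus strand at chr10:71760267-71760326 and chr10:70268643-70268702. Capitals in the Ccl7 probe mark the 29 bases that the other Ccl7 probe also holds, so the 2 readings of Ccl7 were not independent.
Cx3cr1: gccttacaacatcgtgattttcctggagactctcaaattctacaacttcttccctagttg
Ccr2: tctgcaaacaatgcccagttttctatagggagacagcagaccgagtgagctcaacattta
Ccr1l1: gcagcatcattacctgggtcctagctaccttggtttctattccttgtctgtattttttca
Ccl4: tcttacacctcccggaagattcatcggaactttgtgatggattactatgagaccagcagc
Ccl7: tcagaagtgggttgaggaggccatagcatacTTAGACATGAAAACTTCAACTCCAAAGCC

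Promoters were read from RefSeq's GRCr8 assembly, as the 250 bases before the annotated start, and 34 of the 46 members had an entry. Those of Cx3cr1, Ccl7 and Cxcl2 are shown because Cx3cr1 passed the test below and Ccl7 and Cxcl2 had differences that varied between arrays. They are examples only: Ccl4 and Ccl12 also varied between arrays (SD 2.82 and 2.55) and are not shown. They were searched on both strands for TGANTCA (an AP-1 element), GAGGAAG (a core bound by Ets factors such as PU.1), GAAANNGAA (an interferon-response element) and the NF-kB consensus, and capitals mark each match.
Cx3cr1, chr8:128677067-128677316, minus strand: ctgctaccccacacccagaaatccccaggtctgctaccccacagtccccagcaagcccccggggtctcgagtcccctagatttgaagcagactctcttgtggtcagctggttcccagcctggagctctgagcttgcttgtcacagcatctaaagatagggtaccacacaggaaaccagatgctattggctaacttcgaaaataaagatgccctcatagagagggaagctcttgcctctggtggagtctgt
Ccl7, chr10:67513845-67514094, plus strand: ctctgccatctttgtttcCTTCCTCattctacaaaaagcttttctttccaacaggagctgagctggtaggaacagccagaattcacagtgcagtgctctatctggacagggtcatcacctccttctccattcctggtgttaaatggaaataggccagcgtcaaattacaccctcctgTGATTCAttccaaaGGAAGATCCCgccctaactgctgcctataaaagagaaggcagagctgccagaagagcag
Cxcl2, chr14:17467256-17467505, minus strand: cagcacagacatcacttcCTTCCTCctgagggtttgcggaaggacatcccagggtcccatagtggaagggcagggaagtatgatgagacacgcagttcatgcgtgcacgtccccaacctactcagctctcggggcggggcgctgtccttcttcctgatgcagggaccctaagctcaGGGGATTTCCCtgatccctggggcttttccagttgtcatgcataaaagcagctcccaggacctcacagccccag

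The Cx3cr1 window held none of the 4 motifs. In Ccl7, GAGGAAG lay on the minus strand from 232 to 226 bases before the start, TGANTCA from 73 to 67 and an NF-kB consensus on the minus strand from 59 to 50. In Cxcl2, GAGGAAG lay on the minus strand from 232 to 226 bases before the start, and 2 overlapping NF-kB matches lay from 74 to 65 and from 73 to 64. The NF-kB consensus was in 9 of the 34 member promoters (26.5%), against 6.33% of all 33469 promoters in the table, and those 9 were Ccl20, Ccl7, Ccl9, Ccr3, Cxcl1, Cxcl10, Cxcl11, Cxcl2 and Cxcl6. TGANTCA was in 6 member promoters (17.6%, against 6.34% of all), GAGGAAG in 8 (23.5%, against 10.2%) and GAAANNGAA in 3 (8.82%, against 8.12%). Ccl4 and Ccl12 were not among the members with a match to any of the 4 motifs. Whether they lacked a match or a promoter entry is not given here. These matches describe letters in a window and were not tested.

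By the scanner software's flag, each array detected 22464 to 28062 probes in p75High and 23044 to 26174 in p75Low (called well above background here), and no spot was saturated. The log2 ratios of different arrays correlated weakly, with Pearson's r from 0.17 to 0.246 across 24756 probes, which are not independent replicates. Ngfr itself rose by 5.80 ± 0.53 (SD, n = 4 arrays) on the log2 scale in p75High (limma, adjusted p = 0.0262), in the direction of the sort.

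For a probe to be tested, at least 3 of the 4 arrays had to show it well above background, all in 1 channel. Of the 52 member probes 32 were kept (61.5%, against 60.8% of all probes), which left 28 of the 46 genes for the test: 19 ligands and 9 receptors. Both channels were well above background on all 4 arrays for 21 genes. The 18 genes that were not tested comprised 11 ligands and 7 receptors. Of these, Ccl20, Ccl24, Cxcl1, Ccr1, Ccr3 and Xcr1 were not well above background in either population on any array, with log2 intensities between 5.82 and 6.45. The other 12 were well above background on 1 or 2 arrays in at least 1 population.

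**Figure D1:**
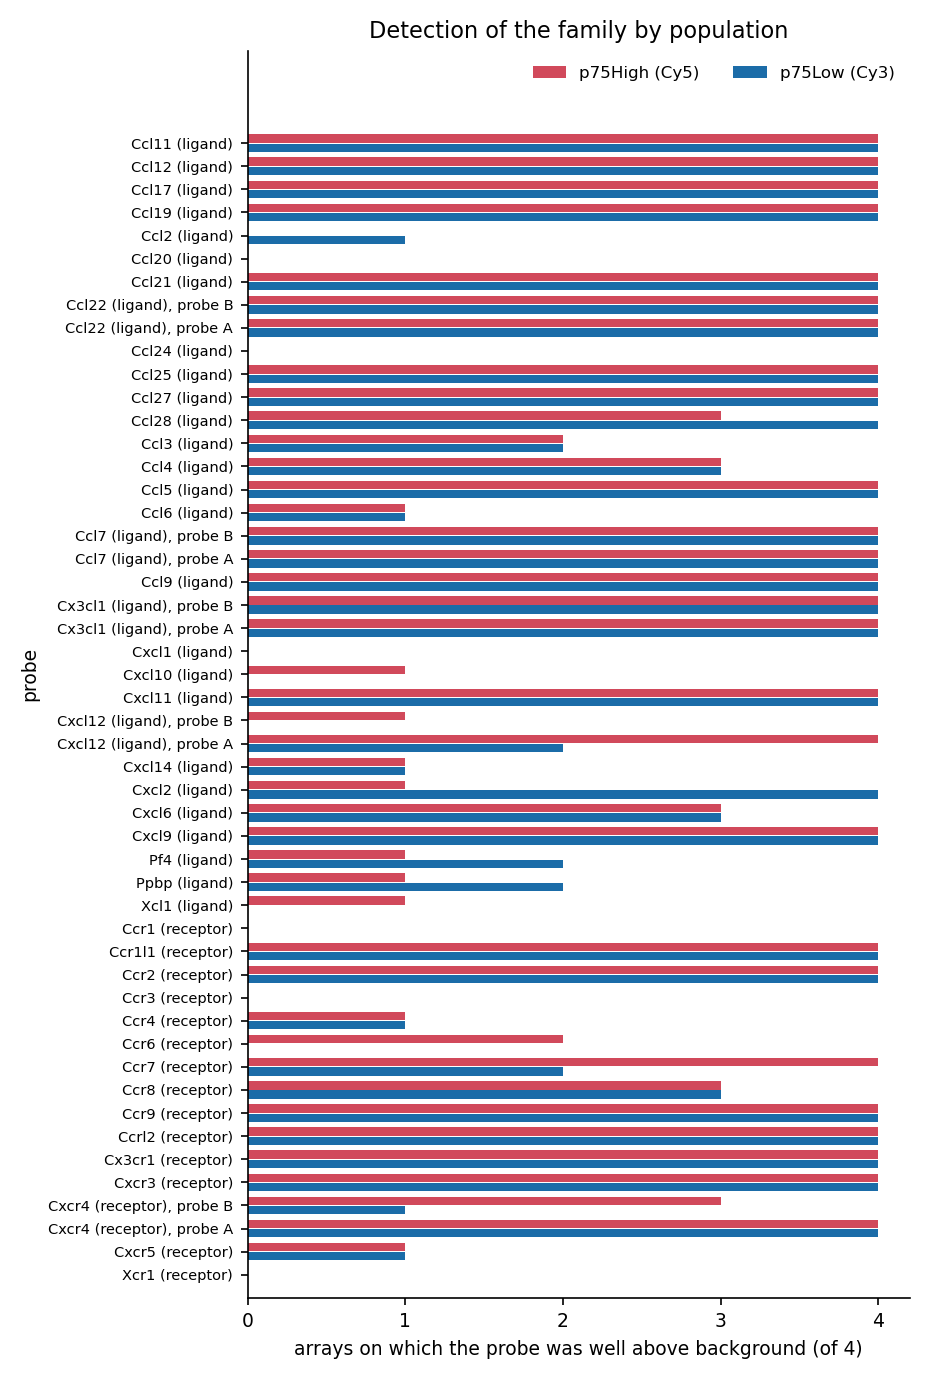
Number of arrays, out of 4, on which each member probe whose gene is described here was well above background in p75High (red) and p75Low (blue), with ligands above receptors. Most probes reached all 4 arrays or at most 2 in both populations, and Cxcl2 reached 4 in p75Low against 1 in p75High.

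Cx3cr1 was the only one of the 28 tested genes that passed, and it was about 20.0-fold lower in p75High. Over all 22191 genes tested, 97 (0.437%) were lower and 69 (0.311%) higher in p75High at an adjusted p under 0.05 (limma, two-sided, Benjamini-Hochberg over all genes), against 1 lower and 0 higher of the 28 family genes. At an unadjusted p under 0.05, 3 family genes were lower and 4 higher, against 6.92% lower and 5.82% higher of all genes. The ratio was below 0 on all 4 arrays for 5 family genes and above 0 on all 4 for 5, against 13.0% and 12.5% of all genes. These counts include Cxcl2, which passed the filter only through p75Low, and Cxcl12, which passed it only through p75High, so nothing is read from them. The median log2 ratio of the 28 genes was -0.06, against -0.03 over all genes, and it was 0.08 when arrays were centred on their median in place of loess, a setting that put the median of all genes at 0.13. Ligands had a median of -0.05 and receptors of -0.19.

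**Figure D2:**
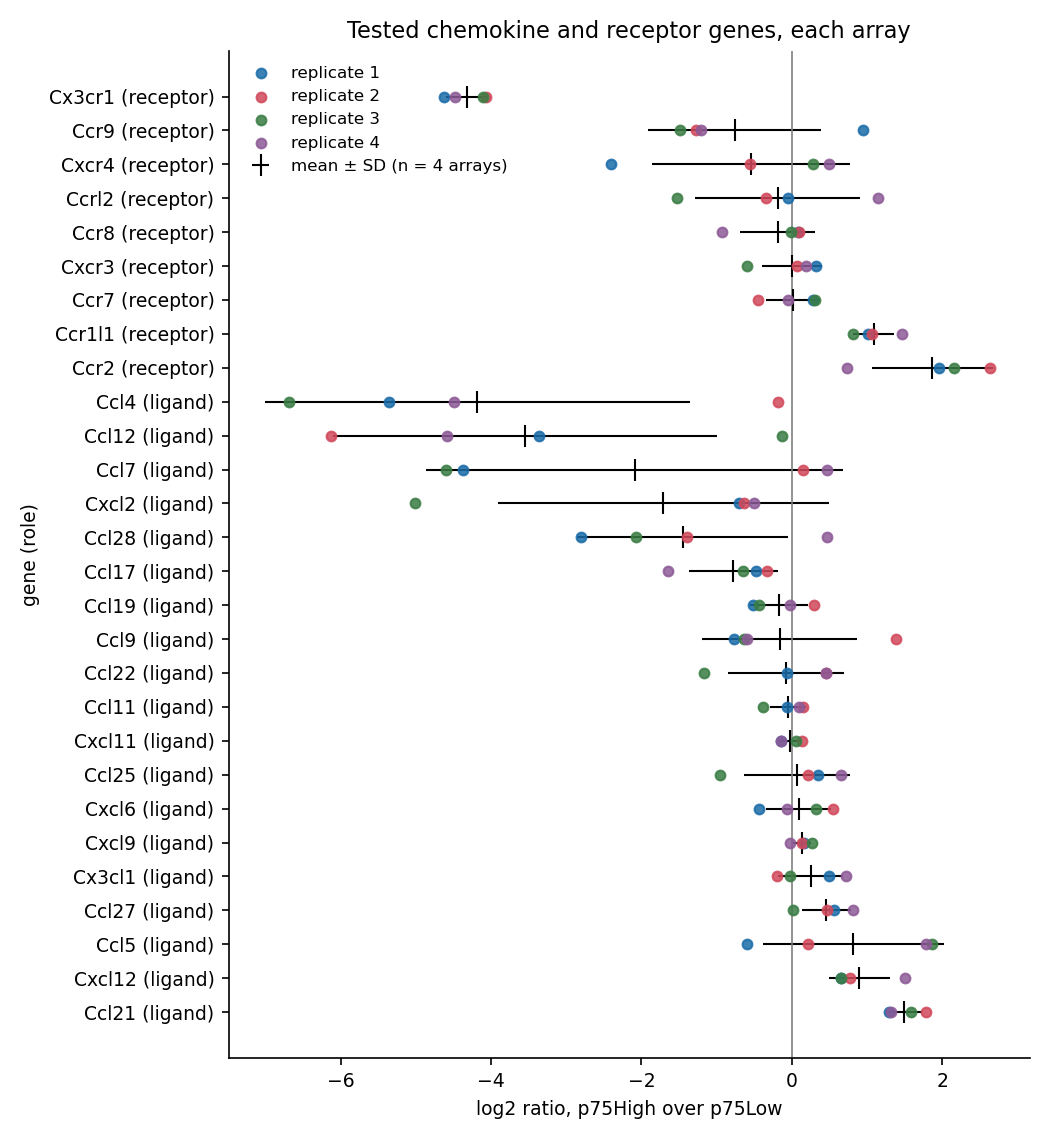
Log2 ratio of p75High over p75Low for the 28 tested genes, receptors above ligands, with 1 coloured point per array and the mean ± SD over 4 arrays in black. The points of Cx3cr1 lie together between -4.62 and -4.07, and those of Ccl4, Ccl12, Ccl7 and Cxcl2 spread between a value near 0 and one below -4.

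Among the receptors, Cx3cr1 had log2 ratios of -4.62, -4.07, -4.10 and -4.48 in replicates 1 to 4. Its log2 intensity was 12.08, 10.75, 10.03 and 12.28 in p75Low and 7.46, 6.67, 5.94 and 7.79 in p75High, and every reading was flagged well above background. The 5.94 of replicate 3 nevertheless lay within the 5.82 to 6.45 of the genes never well above background. The size of that array's difference is thus uncertain, and the scanner's ratios averaged -5.32 over the 4 arrays. The populations did not overlap, and each array gave a similar difference although the levels of both populations moved by over 1 log2 unit between arrays. The mean log2 ratio was -4.32 ± 0.28 (SD, n = 4; 95% interval -5.06 to -3.58; limma, adjusted p = 0.0262). With the robust variance model that follows brightness the adjusted p was 0.0685, and with 3 arrays it was 0.0964 to 0.138, where no gene on the array passed and 1883 to 2376 genes had an unadjusted p under 0.05.

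Markers of macrophages and microglia were also lower in p75High on average. Whether their ratios followed those of Cx3cr1 across arrays was not tested. Of a list of 16, 14 were tested, with mean log2 ratios from -6.11 to -1.60. At an adjusted p under 0.05 (limma) 8 were lower in p75High and 0 higher, against 0.437% and 0.311% of all genes. At an unadjusted p under 0.05 (limma) 12 were lower and 0 higher, against 6.92% and 5.82%. The markers had a median log2 ratio of -4.77 and array medians of -4.68, -5.73, -5.36 and -5.01. Their summed intensity ranged from 296248 to 458770 in p75Low and from 10348 to 19290 in p75High. The lowest ratios were those of the lysosomal protease gene Ctss (-6.11), the colony-stimulating factor receptor gene Csf1r (-6.08), Adgre1 (-5.87), Itgam (-5.77), Lyz2 (-5.54) and Aif1 (-5.36), each with an adjusted p of 0.0262. Csf1r had 2 other probes, which averaged -0.25 and 0.41. In sorted populations measured in bulk, fewer cells of a type and less RNA per cell cannot be told apart, and the part of the marker genes' difference in that of Cx3cr1 was not tested.

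For T, B and NK cells, 6 of 12 markers were tested and 0 passed, with mean ratios of -0.39 to 0.58 and a median of 0.07. Their summed intensity was 1067 to 2724 in p75High and 994 to 1585 in p75Low, and Cd2 and Klrd1 were not well above background on any array. For neutrophils and mast cells, 4 of 8 markers were tested and 0 passed, with 1 lower and 1 higher at an unadjusted p under 0.05 (limma). Their sums were 678 to 1503 in p75High and 447 to 4915 in p75Low, and Mpo was not well above background on any array. Of 14 markers of ensheathing and Schwann glia, all tested, Ngfr alone passed the threshold. Ngfr encodes p75, on which the cells were sorted, so its direction was set by the design. With Ngfr counted, 3 were higher at an unadjusted p under 0.05 (limma) and 4 were above 0 on all arrays. The median was 1.57, with sums of 49852 to 77310 in p75High and 5732 to 25768 in p75Low, all with Ngfr included. Cdh19 (2.35), also included, passed the filter only through p75High, so nothing is read from the median and the sums. Of the fibroblast markers 6 of 10 were tested and 0 passed, with 2 lower and 2 higher at an unadjusted p under 0.05 and array medians of 0.85, -0.28, -0.23 and 1.06. Their sum was 59699 to 79675 in p75High and 13233 to 32478 in p75Low, but Col1a2 (-2.71) and Thy1 (-0.99) were below 0 on all arrays. The other kept probe of Col1a2 averaged -0.91. Thy1, 1 of the 2 lower genes, passed the filter only through p75Low, so nothing is read from its direction. Of the endothelial markers 5 of 8 were tested and 0 passed, with sums of 1503 to 3018 in p75High and 776 to 1141 in p75Low. At an unadjusted p under 0.05 (limma) 0 were lower and 2 higher, against 6.92% and 5.82% of all genes, and 2 were above 0 on all arrays. Vwf, 1 of the 2 higher genes, averaged 1.15, and its other kept probe averaged 0.08. Tek, part of the sums, passed the filter only through p75High, so nothing is read from the sums.

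**Figure D3:**
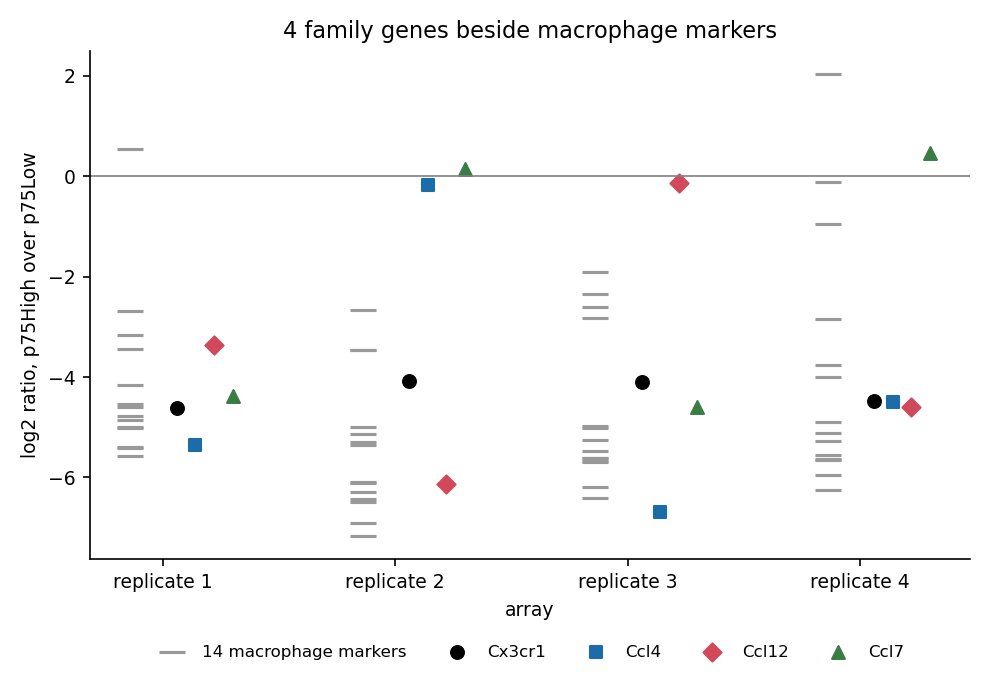
Log2 ratio of p75High over p75Low on each array for the 14 tested macrophage markers (grey bars) and for Cx3cr1, Ccl4, Ccl12 and Ccl7 (symbols). Cx3cr1 sits between -4.62 and -4.07 on each array, while each of the 3 ligands is near 0 on at least 1 array, a different set of arrays for each.

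Ccr2, the receptor for the monocyte chemoattractant ligands, leaned the other way. Its log2 ratios were 1.96, 2.64, 2.16 and 0.74, from log2 intensities of 10.00, 11.57, 10.55 and 12.10 in p75High and 8.04, 8.94, 8.40 and 11.36 in p75Low. The p75High population was the brighter population on every array, and replicate 4 had the smallest difference and the brightest p75Low reading. The mean was 1.87 ± 0.81 (SD, n = 4; 95% interval 0.78 to 2.97), with an unadjusted p of 0.00758 and an adjusted p of 0.231 (limma), so it did not pass.

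Ccr1l1, a close relative of the receptor gene Ccr1, had ratios of 1.01, 1.06, 0.81 and 1.46, with p75High the brighter on every array. Its mean was 1.09 ± 0.27 (SD, n = 4; limma, unadjusted p = 0.0137, adjusted p = 0.292), and it did not pass. The scanner's own ratios put it at 2.20. Ccr1 itself was not well above background anywhere.

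The other tested receptors had means near 0 or differences that changed sign between arrays. Ccr9, the receptor for Ccl25 on gut-homing T cells, had 0.95, -1.28, -1.49 and -1.21 (mean -0.76 ± 1.15). Cxcr4, the Cxcl12 receptor, averaged -0.54 ± 1.32, from -2.40 in replicate 1 to 0.50 in replicate 4, and its dimmer second probe averaged 0.37 ± 0.39. Without replicate 1 the first probe averaged 0.08, so the sign of Cxcr4 rested on that array.

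Ccrl2, an atypical receptor that binds the chemoattractant chemerin, ranged from -1.53 to 1.14 and averaged -0.19. Ccr8 averaged -0.19 (range -0.93 to 0.10), and Ccr7, which guides dendritic cells and T cells to lymph nodes, 0.02 (range -0.45 to 0.31). Cxcr3, the receptor for the interferon-induced Cxcl9, Cxcl10 and Cxcl11, had a mean that rounded to 0.00 (range -0.59 to 0.32), and it was 0.21 with median centring and 0.15 with the scanner's ratios. None of these passed.

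The untested receptors were mostly near the detection limit in both populations. Ccr4 and Cxcr5, the B cell follicle receptor for Cxcl13, were each well above background on 1 array in each population. Ccr6, the receptor for Ccl20, was so on 2 arrays in p75High and 0 in p75Low. Ccr1, Ccr3 and Xcr1 were not so on any array. A difference between the populations was not tested for these receptors.

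Among the ligands, 0 of 19 passed in either direction. The lowest mean was that of Ccl4 (macrophage inflammatory protein 1 beta), an attractant of monocytes and T cells. Its ratios were -5.35, -0.18, -6.69 and -4.49. The p75Low log2 intensities were 14.21, 6.16, 14.82 and 12.01, and those of p75High 8.86, 5.98, 8.13 and 7.52. On 3 arrays p75Low was brighter by more than 4 log2 units, and in replicate 2 the probe was not well above background in either population. The mean of -4.18 ± 2.82 (SD, n = 4; 95% interval -7.23 to -1.12) had an unadjusted p of 0.0178 and an adjusted p of 0.31 (limma). Without that replicate the mean was -5.51.

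Ccl3 (macrophage inflammatory protein 1 alpha), 15.6 kb from Ccl4 by their probes' positions, was well above background on 2 arrays in each population and was not tested. Its ratios were 0.00, -3.35, -2.10 and -0.08, so replicate 2 had the largest difference for Ccl3 and none of that size for Ccl4. Ccl5 (RANTES), an attractant of T cells and monocytes, was detected on all arrays with ratios of -0.59, 0.21, 1.86 and 1.79. Its mean of 0.82 ± 1.20 (adjusted p = 0.566, limma) was above 0, and its 95% interval ran from -0.63 to 2.26.

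Ccl12, a ligand of Ccr2 from the monocyte chemoattractant group, had ratios of -3.36, -6.13, -0.13 and -4.59. The p75Low log2 intensities were 12.31, 13.65, 6.43 and 12.91 and those of p75High 8.95, 7.52, 6.31 and 8.32, all well above background. The p75Low signal was far brighter on 3 arrays, and replicate 3 was dim in both populations. The 6.43 and 6.31 of replicate 3 lay within the 5.82 to 6.45 of the genes never well above background. The size of that array's difference is thus uncertain. The mean was -3.55 ± 2.55 (SD, n = 4; limma, unadjusted p = 0.0226, adjusted p = 0.321), and the gene did not pass.

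Ccl7, another Ccr2 ligand (monocyte chemoattractant protein 3), split the arrays into pairs. Its ratios were -4.37, 0.15, -4.60 and 0.47, and the overlapping second probe gave -5.00, 0.16, -5.16 and 0.29. In p75Low the log2 intensity was 12.48 and 12.28 in replicates 1 and 3 and 9.21 and 8.62 in replicates 2 and 4, while in p75High it lay between 7.68 and 9.36. The p75Low signal was thus bright on the same 2 arrays with both probes. The mean of -2.09 ± 2.77 had an adjusted p of 0.505 (limma).

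Ccl2 (monocyte chemoattractant protein 1), 10.7 kb from Ccl7, was well above background on 0 arrays in p75High and 1 in p75Low, with log2 intensities of 5.96 to 6.61, and was not tested. Ccl11 (eotaxin), 14.4 kb from Ccl7 on its other side and 39.2 kb from Ccl12, was well above background on all arrays with ratios of -0.38 to 0.15 and a mean of -0.05 that was 0.07 with median centring. The low p75Low readings of Ccl4, Ccl12 and Ccl7 thus fell on replicate 2, replicate 3, and replicates 2 and 4 in that order. No array was low for all 3 genes.

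**Figure D4:**
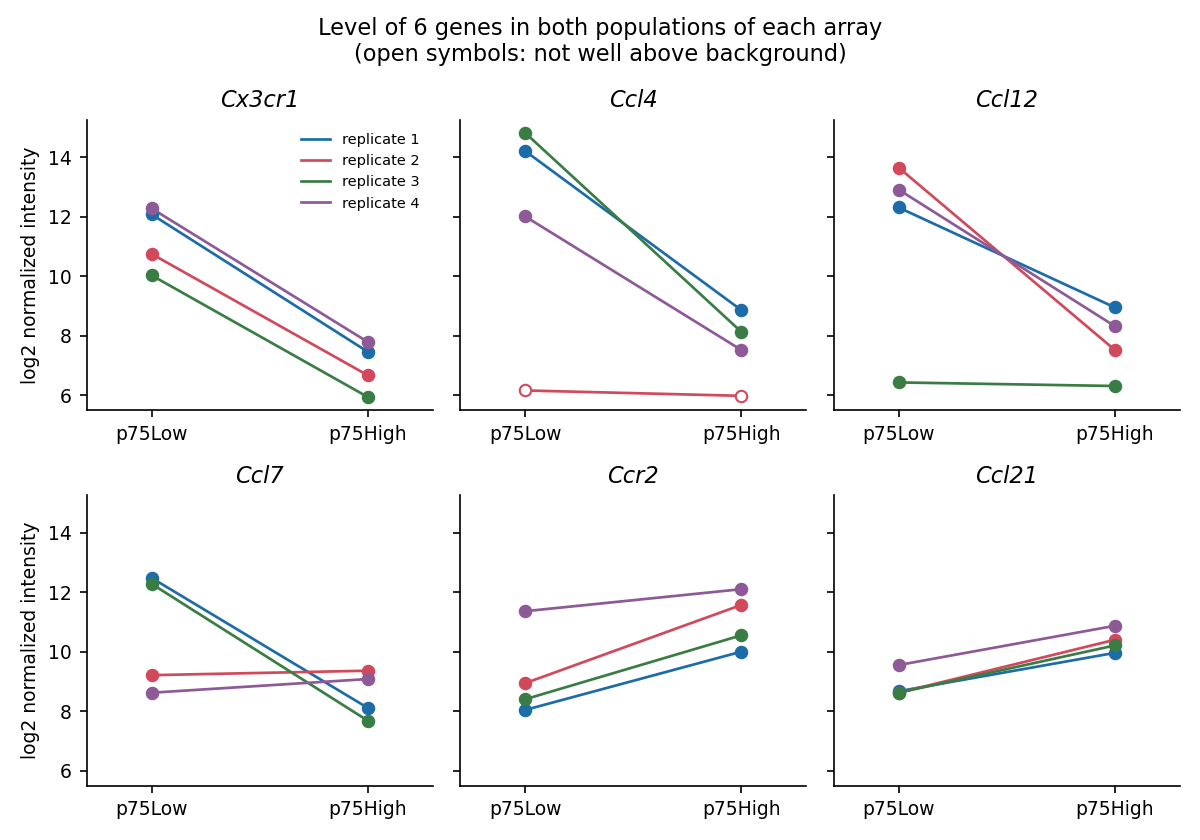
Log2 normalized intensity of 6 genes in p75Low and p75High, with a line for each of the 4 arrays and open symbols where the probe was not well above background. Cx3cr1 lines run in parallel, Ccl4, Ccl12 and Ccl7 each have flat lines on 1 or 2 arrays, and the lines of Ccr2 and Ccl21 all rise toward p75High.

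Ccl6, Pf4 and Ccl28 had the same uneven kind of reading. Ccl6, a rodent ligand of Ccr1, read -4.97 in replicate 1, where p75Low reached 11.69, and -0.19 to 0.17 on the others, where it was not well above background in p75Low. Pf4 (platelet factor 4), which macrophages also make, read -2.08, 0.18, -5.50 and -0.02. Neither was tested. Ccl28, a ligand of Ccr3 and Ccr10 made by mucosal epithelium, had -2.80, -1.39, -2.07 and 0.47 (mean -1.45 ± 1.40, adjusted p = 0.43 by limma), and the scanner's ratios averaged -2.75.

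Single large differences were counted over all 52 probes to describe this unevenness. Of 208 readings, 23 (11.1%) were below -2, a 4-fold difference, against 9.59% of the readings of all probes, and they came from 11 probes of 10 genes. Above 2 there were 4 readings (1.92%), against 8.53% of all. Those 4 were Ccr2 in replicates 2 and 3, Cxcl10 in replicate 3 and the second probe of Ccl22 in replicate 1. The SD between arrays was nevertheless smaller in the family, with a median of 0.54 over the 28 genes against 1.14 over all genes. These comparisons were not matched for brightness, and the background correction used here shrinks the ratios of dim probes.

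Ccl21, a lymph node ligand of Ccr7, had the highest mean of the ligands. Its ratios were 1.29, 1.78, 1.59 and 1.32, from log2 intensities of 9.96, 10.40, 10.21 and 10.87 in p75High and 8.67, 8.62, 8.62 and 9.55 in p75Low. The populations did not overlap, and the arrays differed little. The mean was 1.49 ± 0.24 (SD, n = 4; 95% interval 0.77 to 2.22; limma, unadjusted p = 0.00362, adjusted p = 0.167), and it did not pass under any of 10 other settings, where the adjusted p ran from 0.0974 to 0.356. Rodent genomes can carry near-identical Ccl21 copies, which a single probe may not separate. Ccl19, the other Ccr7 ligand, averaged -0.17 (range -0.52 to 0.29), and 0.00 with median centring.

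Cxcl12 (stromal cell-derived factor 1) had ratios of 0.65, 0.78, 0.65 and 1.50. The p75High signal was well above background on all 4 arrays and p75Low on 2, and a second, dimmer probe was not tested. The gene thus passed the filter only through p75High, the population in which it read higher. The mean was 0.90 ± 0.41 (SD, n = 4; adjusted p = 0.359, limma), and 2.61 with the scanner's ratios. Ackr3, the atypical receptor for Cxcl12, was not well above background on any array.

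Fractalkine, Cx3cl1, the ligand of Cx3cr1, did not pass. Its brighter probe read 0.49, -0.20, -0.03 and 0.72, with a mean of 0.25 ± 0.43 (95% interval -0.57 to 1.07; limma, adjusted p = 0.749), and its second probe also averaged 0.25. The interval leaves room for a difference of about 1 log2 unit toward p75High.

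Cxcl2, a neutrophil attractant read by Cxcr2, had -0.70, -0.63, -5.01 and -0.50. The p75Low signal was well above background on all arrays at 6.70, 6.68, 11.41 and 6.92, and p75High on 1. The gene thus passed the filter only through p75Low, and replicate 3 was the only array with both populations well above background. The mean of -1.71 ± 2.20 (limma, adjusted p = 0.501) was -0.61 without that array and -4.08 with the scanner's ratios. Cxcl1, another neutrophil attractant, was not well above background anywhere. Cxcl6 averaged 0.09 (range -0.43 to 0.55), and -0.13 with the scanner's ratios. Ppbp, a platelet chemokine, was well above background on 1 array in p75High and 2 in p75Low and was not tested.

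None of the interferon-induced ligands passed the test. Cxcl9 averaged 0.14 (range -0.02 to 0.27) and Cxcl11 -0.03 (range -0.15 to 0.13), the latter 0.08 with median centring. Cxcl10 was well above background only in p75High of replicate 3, where its ratio was 3.42, against -0.27 to 0.08 on the other arrays, and it was not tested.

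The remaining ligands did not pass. Ccl17, a Ccr4 ligand made by dendritic cells, was below 0 on all arrays at -0.48, -0.33, -0.65 and -1.64 (mean -0.78 ± 0.59; limma, adjusted p = 0.448). Ccl27, a skin ligand of Ccr10, was above 0 on all arrays at 0.56, 0.47, 0.02 and 0.81 (mean 0.46 ± 0.33; limma, adjusted p = 0.544). For these genes replicates 4 and 3 in that order were farthest from the others.

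Ccl22, the other Ccr4 ligand, averaged -0.08 (range -1.17 to 0.46), and 0.14 with median centring. Its second probe had almost the same mean, -0.02, but readings from -1.47 to 2.26, so the probes parted on single arrays. Ccl9, a rodent ligand of Ccr1, averaged -0.16 (range -0.77 to 1.38), and 0.07 with median centring. Ccl25, the Ccr9 ligand, averaged 0.07 (range -0.95 to 0.66). Cxcl14, well above background on 1 array in each population, and the lymphocyte ligand Xcl1, on 1 in p75High and 0 in p75Low, were not tested.

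By rn4, 12 members lay on chromosome 8, 10 on chromosome 10 and 8 on chromosome 14. The probe of Ccr8 was 41.8 kb from that of Cx3cr1, with mean ratios of -0.19 and -4.32. Ccr1 lay 34.2 kb from Ccr1l1, and only the latter was bright enough to test.

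Another 6 genes of the family had older names on the array, which the naming rule did not take in, and 4 of them were tested. Cxcl13, the B cell attractant, fell by 6.02 on the log2 scale in p75High, about 64.7-fold. Its ratios were -5.39, -6.92, -6.70 and -5.05, with p75Low far brighter on every array (SD 0.93, n = 4; limma, adjusted p = 0.0262). Without the filter on dim probes the adjusted p was 0.0516, and with 3 arrays it was 0.0964 to 0.138. Cxcl3 (-0.61), Cxcl17 (-0.26) and Ccr10 (0.23) did not pass, and the neutrophil receptor genes Cxcr1 and Cxcr2 were not tested.

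Genes that act downstream of chemokine receptors were taken from a list of 48 G protein, kinase, Rac and transcription factor genes, of which 40 were tested. Of these 2 were lower and 0 higher in p75High, against 0.437% and 0.311% of all genes, and 11 were lower and 2 higher at an unadjusted p under 0.05, against 6.92% and 5.82%. The list's median was -0.85 (all genes -0.03), with 13 genes below 0 on all arrays and 2 above, against 13.0% and 12.5%. Vav1 and Crk are among the genes counted at an unadjusted p under 0.05 (limma). Vav1 passed the filter only through p75Low and Crk only through p75High, so nothing is read from these counts. Rgs1, which shortens signalling by G proteins, fell by 4.96 ± 0.86 (adjusted p = 0.0319, limma).

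The call of Rgs1 depended on the settings. It passed in 8 of 10 other settings, and it did not pass without any 1 array, where the adjusted p was 0.106 to 0.146. The macrophage markers given beside Cx3cr1 moved in the same direction, and their part was not tested. Of 10 atypical receptors and chemokine-like genes, 6 were tested and 0 passed in either direction by limma, with 0 lower and 1 higher at an unadjusted p under 0.05 and a median of 0.23.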

How the data were processed

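Each of 4 two-colour arrays (design 014879, all on 1 slide) was deposited as scanner output. Per the file headers, images were read with Agilent Feature Extraction 10.5.1.1 (10.5 in the submitters' processing notes), and the deposited intensity values are mean and background signals on a linear scale. The deposited log10 ratios of Cy5 over Cy3, processed by the authors' scanner software, equalled the series' value table (largest difference 0) and were an alternative after conversion to log2.

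Here, background was corrected by normexp (offset 50), which shrinks the ratios of dim probes, and ratios were normalized within arrays by loess (span 0.3) with limma 3.58.1 in R 4.3.3. The 1639 control spots and the outlier readings (0.641% of 173516) had weight 0. The probe filter left 24941 probes, and a gene was read from its brightest kept probe. The log2 ratio was tested against 0 with lmFit and eBayes, two-sided, with Benjamini-Hochberg adjustment over 22191 genes and a threshold of 0.05. An exact sign-flip test of 4 arrays cannot go below p = 0.125. The number of arrays limits the precision.

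The submitters' design text pairs the channels. Deviations from the group means correlated at 0.126, 0.066, 0.068 and 0.266 within arrays and at most 0.05 between them. Names were updated through RefSeq tables (GRCr8, names and promoters only): 11150 probes matched by accession, 5116 by symbol, 3422 by older symbol and 21324 by none. The members and lists were chosen with earlier results of these data known. Every member is counted, a member and a signalling gene are not reported here by name, and members past the threshold, with an unadjusted p under 0.05 or with 1 sign on all arrays are given by array. Of the listed genes, those past the threshold are named, up to 6 per list. Ackr3, Mpo, Cd2, Klrd1, Ccl3, Ccl6, Pf4, Cxcl10, Vav1, Crk, Col1a2, Thy1, Cdh19, Vwf and Tek were singled out after their values were seen. The fit was tested on simulated data. Alternatives changed 1 choice at a time, except that the scanner ratios replaced background correction and normalization together and the robust variance model came with a brightness trend.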

Additional observations from a re-analysis of the deposited data

Results flagged for a closer look

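In 6 of 55 sets of 4 array values, 1 array lay apart from the other 3 by more than Dixon's 95% limit, which chance alone does in about 1 in 20 sets. For Ccl9 replicate 2 read 1.38 on the log2 ratio scale, against -0.77 to -0.59 on the others. Ccr9 read 0.95 in replicate 1, against -1.49 to -1.21. Ccr8 read -0.93 in replicate 4, against -0.01 to 0.10, and Cxcl12 read 1.50 in replicate 4, against 0.65 to 0.78. Cxcl2 read -5.01 in replicate 3, against -0.70 to -0.50. Among the macrophage markers, Tyrobp read -3.44 in replicate 1, against -5.02 to -4.89.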

How the results depend on the processing

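Cx3cr1 passed in 9 of 10 settings that kept all arrays, with log2 ratios of -5.32 to -4.19, and no other gene chosen by name passed in any of them. With robust eBayes and a trend the counts of family genes and of receptors lower in p75High were both 0. Leaving out 1 replicate gave 0 to 0 family genes, receptors and signalling genes lower, and 0 genes of the whole array. The 2 signalling genes lower became 1 with median centring, 1 with every probe fitted, 4 with the scanner ratios, 0 without the filter and 0 with robust eBayes and a trend. The signalling median was -0.72 with median centring, -1.10 with scanner ratios, -1.08 with the stricter filter, -1.13 with the median over probes and -1.30 to -0.59 without 1 replicate. Median centring put the median of all genes at 0.128, a shift over 0.1. With no replicate block, which ignores the pairing, Cx3cr1 was again the 1 family gene lower, and 153 genes were higher and 163 lower over the array, against 69 and 97. Those counts were 50 and 77 with median centring, 37 and 52 without the filter, 28 and 35 with robust eBayes and a trend, and 113 and 154 with scanner ratios. Signs of genes near 0 turned, for reasons that were not tested. With median centring, Ccl11 was 0.07, Ccl19 0.00, Ccl22 0.14, Ccl9 0.07, Cxcl11 0.08 and Cxcr3 0.21. With scanner ratios, Ccl22 was 0.04, Cxcl11 0.20, Cxcl6 -0.13 and Cxcr3 0.15. Without background correction, Cxcl11 was 0.07, Cxcl6 -0.02 and Cxcr3 0.12. Without 1 replicate, the ranges were -0.12 to 0.06 for Ccl11, -0.26 to 0.28 for Ccl22, -0.13 to 0.41 for Ccl25, -0.67 to 0.05 for Ccl9, -0.07 to 0.18 for Ccr7, -0.29 to 0.06 for Ccr8, -0.64 to 0.25 for Ccrl2, -0.08 to 0.01 for Cxcl11, -0.06 to 0.27 for Cxcl6, -0.11 to 0.19 for Cxcr3, -0.89 to 0.08 for Cxcr4 and -0.55 to 0.02 for Cxcl17. Signal over background limits the 18 untested genes, which were well above background on at most 2 arrays in either population.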
